A study of Mus musculus with 6 samples.

Results

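Myostatin and activin signaling limits the growth of skeletal muscle, and 10 of its genes were followed in the gastrocnemius, a calf muscle, of mice with and without Nogo. The genes were the ligand *Mstn*, the extracellular binding proteins *Fst*, *Fstl1* and *Fstl3*, the type I receptors *Acvr1b* and *Tgfbr1*, the type II receptors *Acvr2a* and *Acvr2b*, and the signal transducers *Smad2* and *Smad4*. They were listed by name as parts of the pathway, and all 10 were among the 12353 genes of the table. The tested mice were Nogo knockouts (Nogo-/-, n = 3), given to the laboratory by Binhai Zheng, and the comparison mice were wild type (Nogo+/+, n = 3). All were housed with a light-dark cycle, and age, sex, strain background and the hour of sampling are not given in the sources used here for these mice. No promoter or Cre that would restrict the knockout to muscle is named, and the tissue was sequenced whole. Each mouse gave 1 library of polyadenylated RNA. Levels are in FPKM, fragment numbers divided by transcript length and by library size. This puts genes and libraries on one scale but does not even out all differences between libraries. Libraries 4, 5 and 6 were Nogo-/- and libraries 1, 2 and 3 were Nogo+/+.

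Myostatin is secreted mainly by muscle fibers, is cleaved by proteases to become active, and binds the type II receptors ACVR2A and ACVR2B, which then recruit and phosphorylate the type I receptors ALK4 (encoded by *Acvr1b*) or ALK5 (encoded by *Tgfbr1*). The type I receptor phosphorylates SMAD2 and SMAD3, which join SMAD4 and act on genes in the nucleus. Follistatin and FSTL3 bind myostatin and activins outside the cell and keep them from the receptors, and animals that lack myostatin have enlarged muscles.

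*Rtn4*, the gene that encodes Nogo (chr11:29692947-29744331, GRCm38), had 0.423, 0.312 and 0.368 FPKM in Nogo-/- libraries, against 414, 429 and 425 FPKM in Nogo+/+ libraries, so each library matched its label (log2 fold change -8.40, SE 0.08, limma adjusted p = 2.08e-10). The depth recovered from the FPKM steps was 13730000 to 14563000 fragments in Nogo-/- libraries and 13450000 to 14351000 fragments in Nogo+/+ libraries. Summed over 8 muscle fiber markers, the level was 28883.5 to 30809.2 FPKM in Nogo-/- libraries and 30623.3 to 31284.5 FPKM in Nogo+/+ libraries, and none of these markers passed the test. Its normalization by rank gave *Acta1*, *Ckm*, *Myh4* and *Tnnt3* the same mean in both groups, so these markers could not pass. Their mean FPKM in Nogo-/- muscle was 0.952, 0.974, 0.916 and 0.977 times that in Nogo+/+ muscle. Library 6 stood apart in 7 skin keratinocyte markers, with a summed 210 FPKM against 3.86 and 9.77 FPKM in the other Nogo-/- libraries and 2.93 to 13.3 FPKM in Nogo+/+ libraries.

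Of the 10 genes, *Acvr2a* fell in Nogo-/- muscle to 0.772 times its Nogo+/+ level, and the other 9 did not pass the test. The test was limma on log2(FPKM + 1) after quantile normalization, with p adjusted across the 12353 genes (Benjamini-Hochberg) and a threshold of 0.05. By this rule 4.64% of all genes changed, 1.89% higher and 2.75% lower, so 1 call among 10 genes is close to the background. The FPKM of the groups did not overlap for 4 of the 10 genes, with *Mstn*, *Fstl3* and *Acvr1b* higher and *Acvr2a* lower in every Nogo-/- library, against 25.9% of all genes (15.9% higher and 10% lower). At an unadjusted p under 0.05 there were 6 of the 10 genes, against 20.5% of all genes. *Fstl3* is in both counts although only its Nogo-/- values brought it into the table, and of the other 9 genes 3 did not overlap and 5 were at an unadjusted p under 0.05. The median log2 fold change of the 10 genes was 0.00029, beside -0.0067 for all genes.

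**Figure D1:**
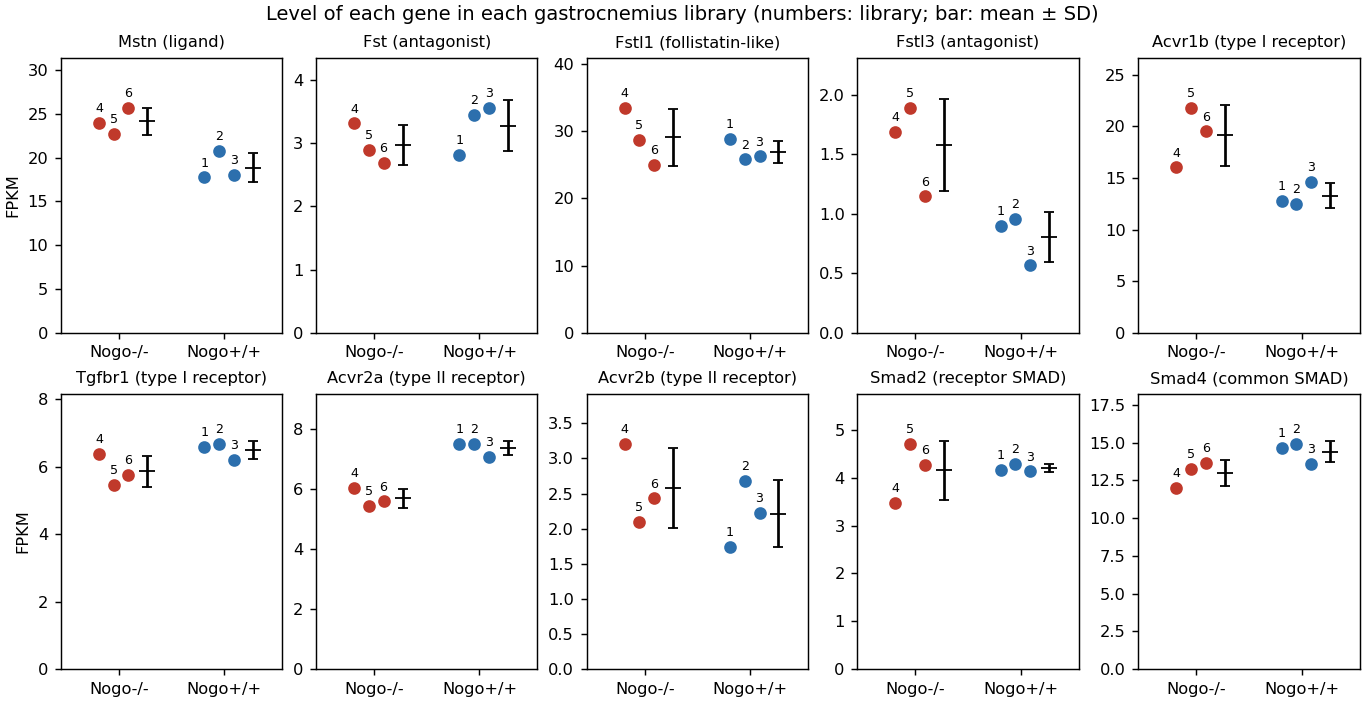
Level in FPKM (vertical axis, starting at 0) of each of the 10 genes in each library, with Nogo-/- libraries in red and Nogo+/+ libraries in blue, numbered by library, and the group mean ± SD as a bar (n = 3 each). The red points of *Mstn*, *Fstl3* and *Acvr1b* lie above all blue points, those of *Acvr2a* lie below them, and the other 6 genes overlap.

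The sequences just upstream of the start of these 4 genes are shown because they are the genes whose groups did not overlap. They come from RefSeq on GRCm38.p6, which had a window for 7 of the 10 genes, and each runs 5′ to 3′ up to the base before the start of the gene. Capitals mark CAGAC or its reverse complement GTCTG, the letters of the SMAD binding element.
Mstn, chr1:53061390-53061639, plus strand: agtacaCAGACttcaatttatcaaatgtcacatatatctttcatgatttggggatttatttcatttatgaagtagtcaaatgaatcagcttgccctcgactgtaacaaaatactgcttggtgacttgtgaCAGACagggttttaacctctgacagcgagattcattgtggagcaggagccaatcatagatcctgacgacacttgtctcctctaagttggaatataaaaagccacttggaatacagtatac
Fstl3, chr10:79777024-79777271, plus strand: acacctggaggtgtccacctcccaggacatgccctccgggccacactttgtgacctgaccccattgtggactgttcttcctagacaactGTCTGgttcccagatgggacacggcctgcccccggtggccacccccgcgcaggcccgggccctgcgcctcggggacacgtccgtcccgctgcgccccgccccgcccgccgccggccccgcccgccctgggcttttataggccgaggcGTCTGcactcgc
Acvr1b, chr15:101173822-101174066, plus strand: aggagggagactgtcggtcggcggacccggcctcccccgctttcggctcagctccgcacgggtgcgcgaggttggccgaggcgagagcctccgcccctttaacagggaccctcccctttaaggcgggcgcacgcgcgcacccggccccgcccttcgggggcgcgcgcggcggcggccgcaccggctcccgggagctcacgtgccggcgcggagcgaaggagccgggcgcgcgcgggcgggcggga
Acvr2a, chr2:48813859-48814108, plus strand: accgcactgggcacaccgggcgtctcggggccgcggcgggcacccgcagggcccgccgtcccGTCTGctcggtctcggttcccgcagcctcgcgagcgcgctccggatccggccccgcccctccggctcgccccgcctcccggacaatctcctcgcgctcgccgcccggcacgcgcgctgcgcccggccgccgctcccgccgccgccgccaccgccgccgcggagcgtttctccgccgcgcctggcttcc
The *Mstn* window of 250 bases had a GC content of 38.4%, with 2 SMAD motifs and 1 TATAAA on the printed strand. The *Fstl3* window of 248 bases had 71.4% GC, 2 SMAD motifs and 1 TATAAA on the other strand, printed as TTTATA. The receptor genes had richer windows, with 78.8% GC and neither motif in the 245 bases of *Acvr1b*, and with 82.0% GC and 1 SMAD motif in the 250 bases of *Acvr2a*. Over 32851 such windows of 27025 genes the median GC content was 52.4%, and, counting both strands, 42.2% held a SMAD motif and 12.4% held TATAAA. A match describes the letters only.

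*Mstn* encodes myostatin, the ligand of the pathway (ENSMUSG00000026100, chr1:53061640-53068079, plus strand). It had 24.0, 22.7 and 25.7 FPKM in Nogo-/- libraries, against 17.7, 20.8 and 18.1 FPKM in Nogo+/+ libraries. Every Nogo-/- library lay above every Nogo+/+ library, and the mean was 24.1 ± 1.52 FPKM in Nogo-/- and 18.9 ± 1.69 FPKM in Nogo+/+ muscle (SD, n = 3 each), a ratio of 1.28. The log2 fold change was 0.29 (SE 0.09, 95% interval 0.09 to 0.49), with an adjusted p of 0.108 in limma, so the gene did not pass the test. Without quantile normalization its adjusted p was 0.0476 with a log2 fold change of 0.34. In bulk tissue a change in the number of cells of a type and a change in RNA per cell cannot be told apart.

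*Fst* encodes follistatin, which binds activins and myostatin with high affinity (ENSMUSG00000021765, chr13:114452290-114458951, minus strand). It had 3.31, 2.89 and 2.69 FPKM in Nogo-/- libraries, against 2.82, 3.45 and 3.56 FPKM in Nogo+/+ libraries. The groups overlapped, with library 1 below 2 of the Nogo-/- libraries, and the log2 fold change was -0.15 (95% interval -0.37 to 0.08, adjusted p = 0.451, limma). The antisense gene *Gm47040* overlaps *Fst* and is not among the genes of the table.

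*Fstl3* encodes a secreted follistatin-like protein that also binds activins and myostatin (ENSMUSG00000020325, chr10:79777272-79782630, plus strand). It had the lowest level of the 10 genes, with 1.69, 1.89 and 1.15 FPKM in Nogo-/- libraries, against 0.896, 0.954 and 0.567 FPKM in Nogo+/+ libraries. The groups did not overlap, and the mean was 1.96 times as high (1.58 ± 0.385 FPKM in Nogo-/- and 0.806 ± 0.209 FPKM in Nogo+/+ muscle, SD, n = 3 each). The table holds only genes that reach 1 FPKM in at least 1 library. *Fstl3* reached it in 3 of 3 Nogo-/- libraries and 0 of 3 Nogo+/+ libraries, so it entered the table only through its Nogo-/- values. The values rest on about 46, 54 and 31 fragments in Nogo-/- libraries and 24, 25 and 16 fragments in Nogo+/+ libraries if all came from the longest annotated transcript, with a counting error of 13.6% to 25.1%. The log2 fold change was 0.47 (SE 0.15, 95% interval 0.13 to 0.81), with an adjusted p of 0.124 in limma. The gene overlaps *Prss57* on the other strand, which is not among the genes of the table. Whether the quantification used strand is not given in the sources used here, and without strand their reads cannot be told apart where they overlap.

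*Fstl1* encodes a secreted protein of the same family by sequence, made by many mesenchymal cells, which is not known as a strong inhibitor of myostatin (ENSMUSG00000022816, chr16:37776873-37836514, plus strand). It was the most abundant of the 10 genes, with 33.5, 28.7 and 25.0 FPKM in Nogo-/- libraries, against 28.8, 25.8 and 26.2 FPKM in Nogo+/+ libraries. The groups overlapped (log2 fold change 0.05, 95% interval -0.16 to 0.26, adjusted p = 0.790, limma), and without library 4 the log2 fold change was -0.04. Summed over 8 markers of fibroblasts and fibro-adipogenic progenitors, library 4 was also highest and library 6 lowest, with 765, 615 and 524 FPKM in Nogo-/- libraries, against 628, 589 and 602 FPKM in Nogo+/+ libraries. None of these 8 markers passed the test, and their part in the *Fstl1* values was not tested.

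The clearest values among the receptors were those of *Acvr2a*, which encodes a type II receptor for activins and myostatin (ENSMUSG00000052155, chr2:48814109-48903269, plus strand). It had 6.03, 5.43 and 5.58 FPKM in Nogo-/- libraries, against 7.50, 7.48 and 7.07 FPKM in Nogo+/+ libraries. The groups did not overlap, and each group varied little between its libraries. The mean was 5.68 ± 0.313 FPKM in Nogo-/- and 7.35 ± 0.241 FPKM in Nogo+/+ muscle (SD, n = 3 each), and the log2 fold change was -0.36 (SE 0.07, 95% interval -0.51 to -0.21, adjusted p = 0.0220, limma). The estimated number of fragments was 479, 449 and 435 in Nogo-/- libraries and 587, 572 and 577 in Nogo+/+ libraries, so counting error was at most 4.79%. With 1 library left out the call held without library 4 (adjusted p = 0.0450) and was lost without library 1 (0.0703), 2 (0.103), 3 (0.0696), 5 (0.0632) or 6 (0.0542), while the log2 fold change stayed between -0.39 and -0.33. The end of *Acvr2a* overlaps *Orc4* on the other strand, which had 9.14, 9.01 and 9.78 FPKM in Nogo-/- libraries, against 10.05, 8.45 and 8.99 FPKM in Nogo+/+ libraries, and whether the quantification used strand is not given in the sources used here.

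*Acvr2b* encodes the other type II receptor, which binds myostatin with the higher affinity (ENSMUSG00000061393, chr9:119402118-119434995, plus strand). It was the less abundant of the pair, with 3.21, 2.10 and 2.43 FPKM in Nogo-/- libraries, against 1.73, 2.68 and 2.22 FPKM in Nogo+/+ libraries. The groups overlapped, and the interval of its log2 fold change, 0.11 (95% interval -0.21 to 0.44, adjusted p = 0.704, limma), leaves room for a change in either direction. The antisense gene *Gm47320* lies within it, with 2.72, 2.78 and 2.92 FPKM in Nogo-/- libraries, against 1.46, 1.12 and 2.44 FPKM in Nogo+/+ libraries (adjusted p = 0.148), and without strand the reads of both cannot be told apart.

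*Acvr1b* encodes ALK4, the type I receptor that activins and myostatin share (ENSMUSG00000000532, chr15:101174067-101213684, plus strand). It had 16.0, 21.8 and 19.5 FPKM in Nogo-/- libraries, against 12.7, 12.5 and 14.6 FPKM in Nogo+/+ libraries. All 3 Nogo-/- libraries lay above all 3 Nogo+/+ libraries, with library 4 nearest to them, and the mean was 19.1 ± 2.91 FPKM in Nogo-/- and 13.3 ± 1.18 FPKM in Nogo+/+ muscle (SD, n = 3 each), a ratio of 1.44. It has 1 annotated transcript of 4418 bases, which gives about 989, 1403 and 1183 fragments in Nogo-/- libraries and 776, 740 and 928 fragments in Nogo+/+ libraries. The log2 fold change was 0.44 (SE 0.11, 95% interval 0.19 to 0.70), with an adjusted p of 0.0655 in limma, so the gene did not pass. It passed without library 4 (adjusted p = 0.0193), without quantile normalization (0.0476) and with sample weights (0.0475), and in the other 8 alternatives it did not.

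*Tgfbr1* encodes ALK5, the type I receptor of TGF-beta, which myostatin can also use (ENSMUSG00000007613, chr4:47353222-47414931, plus strand). It had 6.37, 5.46 and 5.76 FPKM in Nogo-/- libraries, against 6.59, 6.68 and 6.19 FPKM in Nogo+/+ libraries. The groups overlapped through library 4, and the log2 fold change was -0.17 (95% interval -0.33 to -0.0022, adjusted p = 0.238, limma).

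*Smad2* encodes one of the SMADs that the type I receptors phosphorylate (ENSMUSG00000024563, chr18:76241580-76310963, plus strand). It had 3.48, 4.71 and 4.27 FPKM in Nogo-/- libraries, against 4.16, 4.29 and 4.13 FPKM in Nogo+/+ libraries. The Nogo+/+ libraries all lay inside the range of the Nogo-/- libraries, and the coefficient of variation was 15.1% in Nogo-/- and 2.00% in Nogo+/+ libraries, a difference that was not tested. The log2 fold change was -0.05 (95% interval -0.30 to 0.20, adjusted p = 0.827, limma), and 0.07 without library 4, which had the lowest value.

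*Smad4* encodes the common partner of the receptor SMADs (ENSMUSG00000024515, chr18:73639009-73703780, minus strand). It had 12.0, 13.3 and 13.6 FPKM in Nogo-/- libraries, against 14.6, 14.9 and 13.6 FPKM in Nogo+/+ libraries. Library 6 lay just above library 3, so the groups overlapped, and the log2 fold change was -0.18 (95% interval -0.36 to -0.0060, adjusted p = 0.229, limma).

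**Figure D2:**
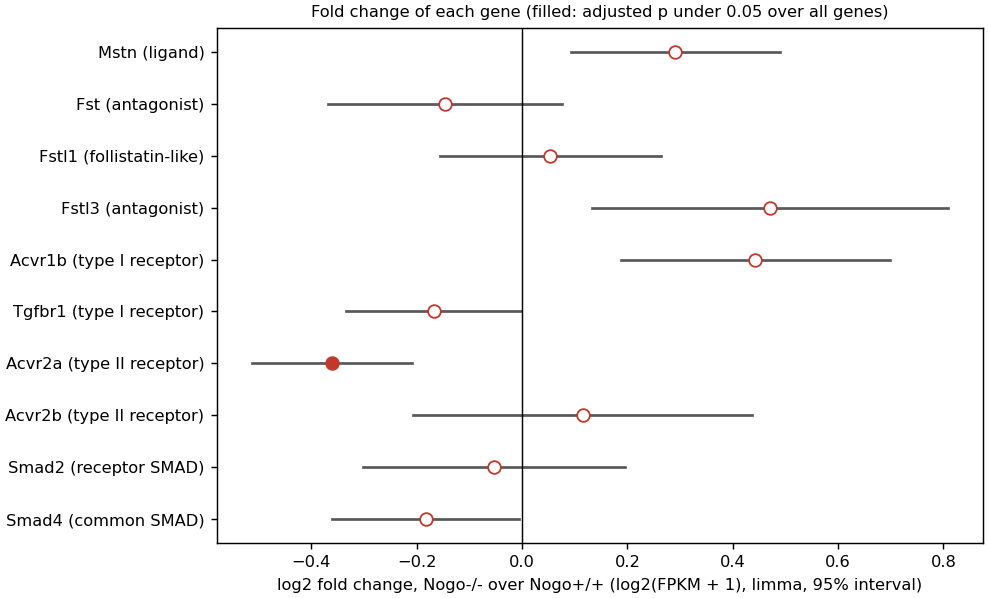
Log2 fold change (horizontal axis, Nogo-/- over Nogo+/+, on the log2(FPKM + 1) scale) of the 10 genes, with 95% intervals from limma before adjustment as lines. The filled point is *Acvr2a* at -0.36, and the intervals of *Mstn*, *Fstl3* and *Acvr1b* lie above 0 although their adjusted p was 0.108, 0.124 and 0.0655.

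By mean FPKM the order in Nogo-/- muscle was *Fstl1*, *Mstn*, *Acvr1b*, *Smad4*, *Tgfbr1*, *Acvr2a*, *Smad2*, *Fst*, *Acvr2b* and *Fstl3*. The neighbors *Fstl1* and *Mstn*, *Tgfbr1* and *Acvr2a*, and *Fst* and *Acvr2b* overlapped between libraries and are not separated in this order. In Nogo+/+ muscle *Smad4* stood before *Acvr1b* and *Acvr2a* before *Tgfbr1*, with the rest of the order the same, and the overlapping neighbors were *Smad4* and *Acvr1b*. The make-up of the receptors, as the share of summed FPKM, is given as a description of the same values. Of *Acvr1b* plus *Tgfbr1*, *Acvr1b* made up 71.5%, 80.0% and 77.2% in Nogo-/- libraries, against 65.9%, 65.1% and 70.3% in Nogo+/+ libraries. Of *Acvr2a* plus *Acvr2b*, *Acvr2a* made up 65.3%, 72.1% and 69.6% in Nogo-/- libraries, against 81.2%, 73.6% and 76.1% in Nogo+/+ libraries. Neither share overlapped between the groups, and the nearest libraries were 4 and 3 for the type I pair and 5 and 2 for the type II pair. *Acvr1b* and *Acvr2a* already had separate groups, so the shares partly restate this, and they were not tested. The level of *Mstn* was 7.25, 7.84 and 9.55 times that of *Fst* in Nogo-/- libraries, against 6.29, 6.02 and 5.07 times in Nogo+/+ libraries. This ratio leaves out *Fstl3*, which was higher in every Nogo-/- library. The sum of *Fst* and *Fstl3*, the antagonists among the 10 genes, overlapped, with 5.0, 4.79 and 3.84 FPKM in Nogo-/- libraries, against 3.72, 4.41 and 4.13 FPKM in Nogo+/+ libraries. Relative to this sum in place of *Fst* alone, the level of *Mstn* overlapped between the groups.

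**Figure D3:**
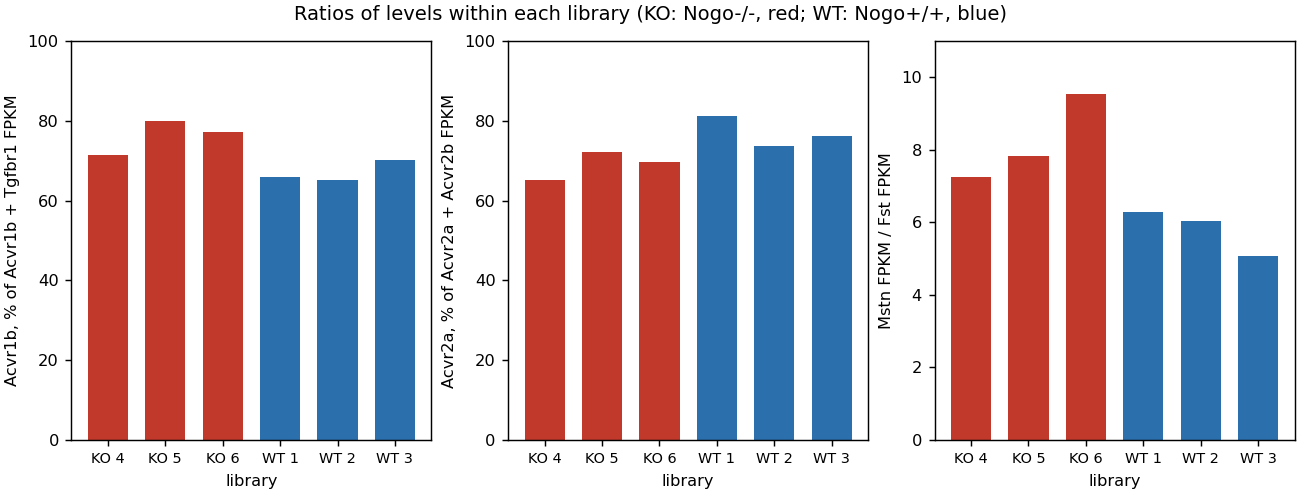
Share of *Acvr1b* in the summed FPKM of both type I receptors (%), share of *Acvr2a* in that of both type II receptors (%) and ratio of *Mstn* to *Fst* FPKM, one bar per library from 0, Nogo-/- (KO) in red and Nogo+/+ (WT) in blue. The *Acvr1b* share is 71.5% to 80.0% in Nogo-/- and 65.1% to 70.3% in Nogo+/+ libraries, and the *Acvr2a* share is 65.3% to 72.1% in Nogo-/- and 73.6% to 81.2% in Nogo+/+ libraries. The ratio of *Mstn* to *Fst* leaves out *Fstl3*.

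Beyond these genes, 72 others of the pathway and its neighbors were followed in lists, and 56 were in the table. Of these, 3 rose and 3 fell in Nogo-/- muscle and 50 did not pass, a share passed of 10.7%, against 4.64% of all genes (1.89% higher and 2.75% lower). The lists were drawn up with earlier results of these data known, so nothing is read from this difference. Their median log2 fold change was -0.04, beside -0.0067 for all genes.

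Of 18 further ligands, processing enzymes and extracellular regulators, 8 were in the table, 1 fell and 7 did not pass, against 2.75% of all genes that fell. *Furin*, which encodes a protease that cuts the precursors of myostatin and other ligands, had 12.3, 12.4 and 11.6 FPKM in Nogo-/- libraries, against 16.1, 15.5 and 15.9 FPKM in Nogo+/+ libraries. Its log2 fold change was -0.40 (SE 0.05, adjusted p = 0.00549, limma), and it passed in all 11 alternatives, with an adjusted p of 0.00501 to 0.0392. *Gdf11*, the closest relative of *Mstn*, had 4.08, 3.35 and 3.46 FPKM in Nogo-/- libraries, against 4.42, 5.57 and 4.87 FPKM in Nogo+/+ libraries, which did not overlap (log2 fold change -0.39, adjusted p = 0.0626). *Ltbp3*, *Pcsk6* and *Bmp1*, whose products hold back or cut ligands, had adjusted p of 0.294, 0.450 and 0.723. The activin subunit genes *Inhba*, *Inhbb*, *Inhbc* and *Inhbe* were not among the genes of the table, and *Inha*, which encodes the inhibin alpha subunit, had 2.95 to 3.37 FPKM in Nogo-/- libraries and 2.56 to 3.63 FPKM in Nogo+/+ libraries.

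Of 17 further activin receptors and regulators of SMAD2 and SMAD3, 14 were in the table, 2 fell and 12 did not pass, against 2.75% of all genes that fell. The median log2 fold change was -0.10. *Smad3*, the partner of *Smad2*, had 19.7, 22.7 and 22.8 FPKM in Nogo-/- libraries, against 26.0, 28.6 and 29.7 FPKM in Nogo+/+ libraries (log2 fold change -0.41, SE 0.08, adjusted p = 0.0354, limma). The groups did not overlap, and *Smad3* was the more abundant of the 2 receptor SMADs in every library. Its call was lost without library 2 (adjusted p = 0.145), 3 (0.137), 4 (0.0707) or 5 (0.0664) and without the mean-variance trend (0.0725). *Smurf2*, which encodes a ubiquitin ligase that marks SMADs and receptors for degradation, had 5.49, 5.53 and 5.59 FPKM in Nogo-/- libraries, against 6.89, 6.84 and 6.71 FPKM in Nogo+/+ libraries (log2 fold change -0.29, SE 0.06, adjusted p = 0.0403, limma), and was lost with any 1 library left out (0.0677 to 0.151) and without quantile normalization (0.0619). The inhibitory *Smad7* had 1.93, 2.37 and 1.69 FPKM in Nogo-/- libraries, against 2.05, 2.06 and 1.88 FPKM in Nogo+/+ libraries, which overlapped (adjusted p = 0.860). The next genes of the list by p were *Ppm1a*, which encodes a phosphatase of SMAD2 and SMAD3, and *Zfyve9*, which encodes an anchor that brings them to the receptor. *Ppm1a* had 115, 124 and 124 FPKM in Nogo-/- libraries, against 128, 130 and 129 FPKM in Nogo+/+ libraries, which did not overlap (log2 fold change -0.14, adjusted p = 0.129). *Zfyve9* had 17.4, 19.4 and 18.2 FPKM in Nogo-/- libraries, against 18.9, 21.3 and 21.9 FPKM in Nogo+/+ libraries, which overlapped (log2 fold change -0.21, adjusted p = 0.157), and *Pmepa1* and *Smurf1* had adjusted p of 0.327 and 0.478.

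Of 18 genes known to respond to SMAD2 and SMAD3, 16 were in the table, 3 rose and 13 did not pass, against 1.89% of all genes that rose. The list had a median of -0.04 on the log2 scale. *Ccn2*, which encodes a matricellular protein, had 35.7, 20.3 and 31.2 FPKM in Nogo-/- libraries, against 13.2, 13.5 and 15.1 FPKM in Nogo+/+ libraries (log2 fold change 0.93, SE 0.18, adjusted p = 0.0245, limma). *Spsb1*, which encodes an adaptor of a ubiquitin ligase, had 4.13, 3.17 and 5.05 FPKM in Nogo-/- libraries, against 2.29, 2.25 and 1.63 FPKM in Nogo+/+ libraries (log2 fold change 0.70, SE 0.16, adjusted p = 0.0437, limma). The groups overlapped for neither gene, and library 5 was the lowest Nogo-/- library in both. Both calls were lost without library 1, 2, 3, 4 or 6 (adjusted p = 0.0643 to 0.108 for *Ccn2* and 0.0784 to 0.149 for *Spsb1*) and without the mean-variance trend (0.0591 for *Ccn2* and 0.0770 for *Spsb1*), whereas without library 5 the adjusted p was 0.00074 for *Ccn2* and 0.0267 for *Spsb1*. *Tgfbi*, *Cdkn1a* and *Tgif1* had adjusted p of 0.240, 0.285 and 0.519, beside *Pmepa1*, which stands in both lists, and the matrix genes *Col1a1*, *Col3a1* and *Fn1* had log2 fold changes of -0.04, -0.10 and -0.08, with overlapping groups.

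Of 12 TGF-beta ligands, latency proteins and receptors 11 were in the table, and of 13 receptors and SMADs of the bone morphogenetic protein (BMP) arm 11 were in the table. None of either list passed in limma, with 1 and 2 genes at an unadjusted p under 0.05, against 20.5% of all genes. The medians were -0.01 and -0.10. The smallest p of the TGF-beta list belonged to *Itgav*, an integrin subunit that releases latent TGF-beta, with 10.4, 9.65 and 11.7 FPKM in Nogo-/- libraries, against 9.0, 7.11 and 7.95 FPKM in Nogo+/+ libraries (log2 fold change 0.32, adjusted p = 0.124), followed by *Tgfb3* (0.285), *Tgfbr3* (0.340) and *Thbs1* (0.444). The smallest of the BMP arm belonged to *Acvr1*, which encodes the type I receptor ALK2, with 7.06, 7.01 and 8.18 FPKM in Nogo-/- libraries, against 8.77, 8.37 and 9.10 FPKM in Nogo+/+ libraries (log2 fold change -0.26, adjusted p = 0.139), followed by *Rgmb* (0.168), *Eng* (0.248) and *Smad6* (0.321).

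**Figure D4:**
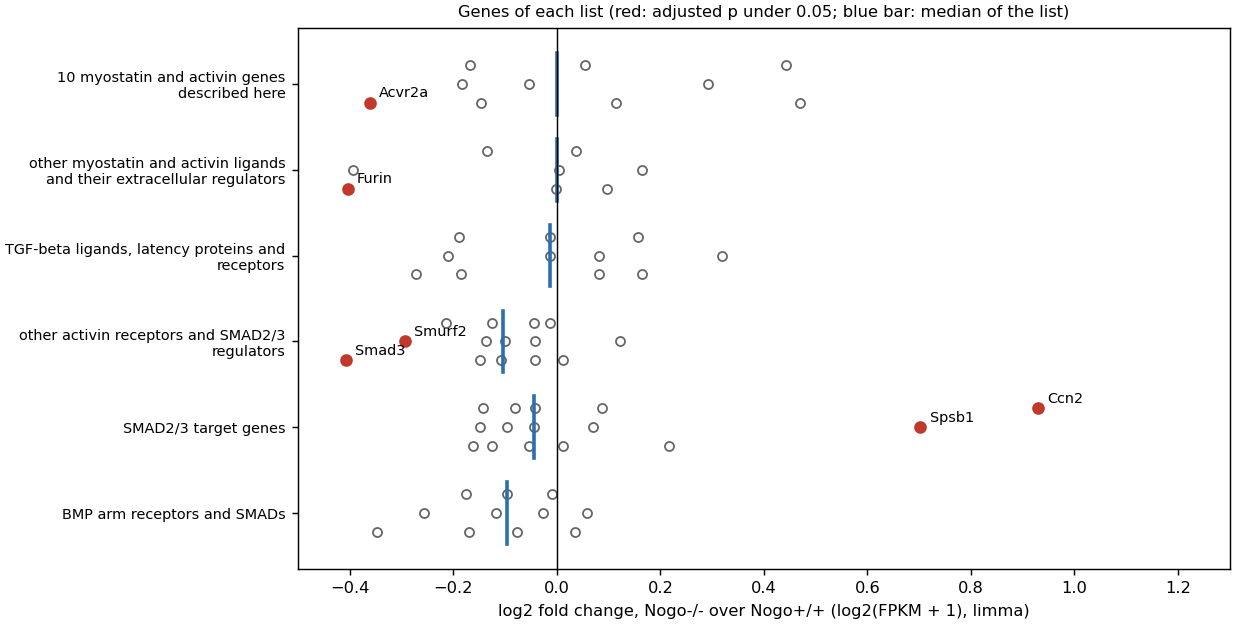
Log2 fold change (horizontal axis, Nogo-/- over Nogo+/+) of the measured genes in each list, one point per gene, with genes past the limma threshold filled and named and the list median as a blue bar. *Ccn2* at 0.93 and *Spsb1* at 0.70 lie apart, and 1 gene of the target list is not drawn, while the medians lie between -0.10 and 0.0010.

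Markers of other cell types moved beside these genes, and their part in the results was not tested. Of 8 endothelial markers 5 fell and 3 did not pass, against 2.75% of all genes that fell, with a summed level of 115 to 134 FPKM in Nogo-/- libraries and 145 to 161 FPKM in Nogo+/+ libraries. The log2 fold change was negative for 6 of these markers and positive for 2, *Flt1* (0.12) and *Esam* (0.02). Of 7 smooth muscle and pericyte markers 2 fell and 5 did not pass, against 2.75% of all genes that fell. Their summed level was 169 to 213 FPKM in Nogo-/- libraries and 234 to 242 FPKM in Nogo+/+ libraries. All 7 of these fold changes were negative, and 4 markers were lower in Nogo-/- muscle without overlap of the groups, against 10% of all genes. None of 8 adipocyte markers passed. All 8 fold changes were positive, and 4 were higher in Nogo-/- muscle without overlap of the groups, against 15.9% of all genes. Their summed levels were 1105, 794 and 645 FPKM in Nogo-/- libraries, against 604, 678 and 675 FPKM in Nogo+/+ libraries, for all 8 markers. The 7 macrophage and leukocyte markers in the table had summed levels of 68.3 to 96.5 FPKM in Nogo-/- libraries and 70.2 to 106 FPKM in Nogo+/+ libraries, and none passed. Of 6 satellite cell markers 3 were in the table, none passed, and the defining *Pax7* and *Myf5* were not among them. Schwann cell and tendon markers overlapped between the groups, with none passed.

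The order of the 4 genes with separate groups by adjusted p depended on the processing. *Acvr2a* was under 0.05 in 6 of 11 alternatives, which included all 5 that kept all libraries (0.0193 to 0.0404), *Acvr1b* in 3, *Mstn* in 1 and *Fstl3* in none (0.0617 to 0.307). In every alternative the direction of these 4 genes was as reported, which follows largely from picking genes with separate groups.

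**Figure D5:**
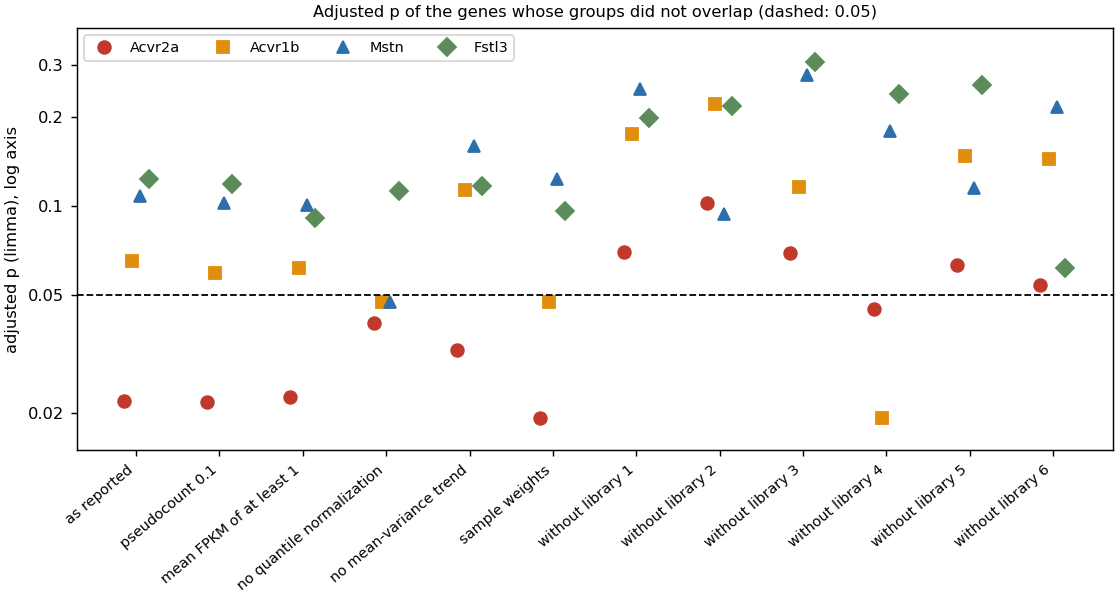
Adjusted p from limma (vertical log axis) of *Acvr2a*, *Acvr1b*, *Mstn* and *Fstl3* as reported and in each of 11 alternatives (horizontal axis), with the threshold of 0.05 dashed. *Acvr2a* lies under the line in the 5 alternatives that keep all libraries and without library 4, and *Acvr1b* falls to 0.0193 without library 4.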

How the data were processed

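Processed RNA-seq values of the gastrocnemius were analyzed for 3 Nogo-/- and 3 Nogo+/+ animals, which the study's methods call biological replicates. According to the submitters' processing notes and the study's methods, stranded mRNA libraries were run on a HiSeq instrument, processed with CASAVA 1.8.2, trimmed with cutadapt 1.4.2, aligned to GRCm38.p6 by STAR 2.6.1 and quantified by Cufflinks 2.2.1. The authors deposited FPKM for genes with at least 1 FPKM in at least 1 of 6 libraries. FPKM are not counts, so no count test was run. The columns are numbered, and their groups were taken from the headings of the study's gene table. A further 6 columns of per-sample log2 values were not used, as they could not be matched to single mice beside the FPKM columns.

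FPKM were quantile normalized, set to log2(FPKM + 1), and tested with limma 3.58.1 (R 4.3.3) with a mean-variance trend and no covariates, in place of the study's own permutation procedure. Adding the pseudocount of 1 understates the fold changes of low genes, and ratios of means are given on the FPKM scale. An exact permutation test of 3 mice against 3 cannot go below p = 0.1 and was not used. Symbols and coordinates came from GENCODE M21 (12342 of 12353 identifiers matched). Named genes are the 10 given, every listed gene that passed and up to 4 more per list by p. *Inha*, *Smad7*, *Col1a1*, *Col3a1*, *Fn1* and the overlapping genes were named after their values were seen. A gene of the lists that the rule takes in is not reported here but stays in the counts. The genes and lists were chosen with earlier results of these data known. Depth was estimated from single-transcript genes, where 94.6% to 98.5% of 178 to 217 low values per library lay within 0.1 of a whole number of fragments (20.0% by chance), so fragment numbers are estimates and their errors cover counting only. Alternatives left out each library in turn, used sample weights, dropped the mean-variance trend or the quantile normalization, set the pseudocount to 0.1, or kept genes averaging 1 FPKM or more. Python 3.11.15 with NumPy 2.4.6, pandas 2.3.3, SciPy 1.17.1 and matplotlib 3.10.9 was used.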

Additional observations from a re-analysis of the deposited data

How the results depend on the processing

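The number of genes changed in the whole table was 573, and 188 to 434 with 1 library left out. Of the 10 genes 1 changed, against 3 without quantile normalization, 2 with sample weights and 0 to 2 with 1 library left out. Of the other pathway genes 6 changed, against 2 without the mean-variance trend and 1 to 4 with 1 library left out. With 1 library left out the log2 fold change was -0.044 to 0.14 for *Fstl1*, -0.13 to 0.070 for *Smad2* and -0.017 to 0.24 for *Bmp1*, changing sign without library 4, and none of these genes was called. Without quantile normalization 302 genes were higher and 234 lower (56.3% higher), beside 233 higher and 340 lower (40.7% higher) with it, and the median of all genes was 0.03 in place of -0.0067. For the 10 genes, 99 of the values under an alternative kept direction and side of the threshold, 4 passed newly, 5 no longer passed and 2 changed sign, and for the 25 others that the naming rule takes in, *Rtn4* included, these numbers were 249, 1, 24 and 1. The cause of these differences was not tested. A fit on log2 values normalized by the authors was intended but not run. No paired analysis was possible because no column name holds a replicate number of the labels. With 3 mice per group, *Fstl3*, *Fst* and *Acvr2b* rest on the fewest fragments of the 10 genes.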

Other observations

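Within a library, *Mstn* was 5.89, 6.78 and 7.42 times as high as its relative *Gdf11* in Nogo-/- libraries, against 4.01, 3.73 and 3.71 times in Nogo+/+ libraries. *Smad3* was 5.66, 4.82 and 5.35 times as high as *Smad2* in Nogo-/- libraries, against 6.25, 6.66 and 7.19 times in Nogo+/+ libraries. *Acvr1b* was 2.66, 4.02 and 3.50 times as high as *Acvr2a* in Nogo-/- libraries, against 1.70, 1.67 and 2.07 times in Nogo+/+ libraries. The libraries of the groups did not overlap in any of these 3 ratios, which were chosen after their parts were seen and were not tested.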
